A study of Mus musculus with 24 samples.

Results

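The genes described here are the ligands, receptors and regulators of Wnt signaling in the adult mouse hippocampus. The list held 54 genes chosen by symbol: 11 Wnt ligands, 2 factors of ligand secretion (Porcn, Wls), 15 receptors (Fzd1 to Fzd10, Lrp5, Lrp6, Ror1, Ror2 and Ryk), 7 genes of the R-spondin axis, 7 secreted antagonists, 7 intracellular transducers and 5 nuclear factors or feedback targets. A gene was kept when at least 6 mice had 10 or more counts, and 53 of the 54 were kept, of 18610 genes that met the same rule among the 36605 in the table. Wnt8b was the gene not kept, with 0 to 16 counts per mouse. Of the 53, 46 had 10 or more counts in every one of the 24 mice.

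Wnt proteins are secreted lipid-modified ligands that bind Frizzled receptors together with the co-receptors Lrp5 and Lrp6, or with Ror and Ryk. Binding stops a complex of Apc, Axin and Gsk3b from marking beta-catenin (Ctnnb1) for destruction, and beta-catenin then works with Tcf and Lef proteins on target genes such as Axin2. In the hippocampus the pathway is known for its part in the growth of the structure, in making new granule neurons in the dentate gyrus, and in the formation of synapses.

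There were 4 genotypes, each with hippocampal RNA of 3 females and 3 males. Mice named wtNeg had wild-type Egr1 and no Cre (Egr1wt NesCre-). Mice named wtPos had wild-type Egr1 and the Nestin-Cre transgene (Egr1wt NesCre+, the Cre control). Mice named ffNeg had Egr1 flanked by loxP sites (floxP) and no Cre (Egr1f NesCre-, the Egr1cKO control), and ffPos mice had both (Egr1f NesCre+, Egr1cKO). All were adults, with no closer age in the labels. The Nestin promoter drives Cre in neural precursors, so cells of other lineages, such as microglia and endothelium, would keep Egr1. Its level was not measured by cell type here. The floxed line was made in C57BL/6N mice. Mouse numbers in the labels came from separate ranges for the Egr1wt and the Egr1f mice, so floxed against wild-type alleles and 1 series of mice against the other cannot be told apart.

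Egr1 itself was at 63.8 to 149 CPM (counts scaled to library size) in wtNeg mice, 47.7 to 125 in wtPos mice, 67.0 to 147 in ffNeg mice and 4.86 to 10.2 in ffPos mice. The ffPos mice did not overlap the other 18. The log2 fold change (log2FC) was -3.59 ± 0.23 (SE), with an adjusted p of 1.19e-11 by edgeR's quasi-likelihood test with Benjamini-Hochberg adjustment. The labels also call the cell type endocrine, and the 7 pituitary markers in the table summed to only 1.00 to 3.84 CPM per mouse, against 322 to 690 for markers of dentate granule cells and 357 to 650 for those of CA1 pyramidal cells. Total counts per mouse ran from 18025168 to 34955004, with a median of 22743950.5. In 5 mice the summed markers of the choroid plexus stood far above the rest, as described further on. In bulk tissue, fewer cells of a type and less RNA per cell cannot be told apart.

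EGR1 binds GC-rich 9-base sites, of which GCGTGGGCG and GCGGGGGCG are the best known, so the promoters of the members are shown first for their letters. RefSeq promoters (GRCm38.p6, the 250 bases before each annotated start) were matched for 36 members, with 45 promoters in all, and both strands were searched. No promoter was matched for the other members, among them Znrf3, Wnt10a, Fzd3, Apc and Lrp6, so theirs were not searched. GCGGGGGCG or its reverse complement CGCCCCCGC was present in promoters of 6 members, Wnt2, Wnt7a, Fzd4, Wif1, Tcf7 and Tcf7l2, and in 2.57% of all 32851 RefSeq promoters. The member promoters were also richer in G and C, with a median of 65.2% against 52.4% over all promoters. GCGTGGGCG or CGCCCACGC was in none of the 45 and in 0.536% of all promoters. CTTTGAT, the core read by Tcf and Lef proteins, or ATCAAAG was in 1 member promoter, of Wnt5b, and in 3.21% of all. The match in each of the 6 members is shown in capitals within 10 bases of flank, read along the strand of the gene.

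Wnt2, chr6:18030619-18030647, - strand: gtgccccctaCGCCCCCGCccggcgtagg
Wnt7a, chr6:91411377-91411405, - strand: agagggagggGCGGGGGCGggaggcagca
Wnt7a, chr6:91411514-91411542, - strand: ctccgctccaCGCCCCCGCctcccaccgc
Fzd4, chr7:89404324-89404352, + strand: cgtcccgcccCGCCCCCGCcctgcgaacc
Wif1, chr10:121033913-121033941, + strand: accgcggcccCGCCCCCGCggctccgcag
Tcf7, chr11:52283142-52283170, - strand: ctggactcggGCGGGGGCGgcgcgggcgc
Tcf7l2, chr19:55741707-55741735, + strand: cattgttggcCGCCCCCGCcccgcccacc

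Of these 6 genes, Fzd4 is the one whose level in Egr1cKO mice stood furthest from that in the other mice, as described further on, and its promoter is therefore given whole, over the 239 bases that end just before the annotated gene start (chr7:89404116-89404354, + strand, 72.8% G and C), with the match in capitals. A match of letters is a description of the sequence and not a measured binding site.

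Fzd4: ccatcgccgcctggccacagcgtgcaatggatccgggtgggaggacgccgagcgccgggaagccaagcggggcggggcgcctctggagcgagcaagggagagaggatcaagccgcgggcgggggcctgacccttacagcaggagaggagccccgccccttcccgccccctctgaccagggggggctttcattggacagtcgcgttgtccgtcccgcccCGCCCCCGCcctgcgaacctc

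Levels of different genes were compared in TPM, counts scaled to exonic length and then to library size. By the median over 24 mice, the most abundant members were the secreted Dkk3 at 481 TPM, Ctnnb1 at 229 and Porcn, the enzyme that attaches the lipid to Wnt proteins, at 94.1. Dkk3 exceeded Ctnnb1, and Ctnnb1 exceeded Porcn, in all 24 mice and without overlap. The next transducers, Dvl1 at 82.5, Apc at 82.4 and Gsk3b at 81.6, could not be ordered, since their ranges overlapped. Over the whole order of 53 genes only 3 of 52 neighboring pairs did not overlap between mice, the third being Gsk3b over Wnt7b.

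**Figure D1:**
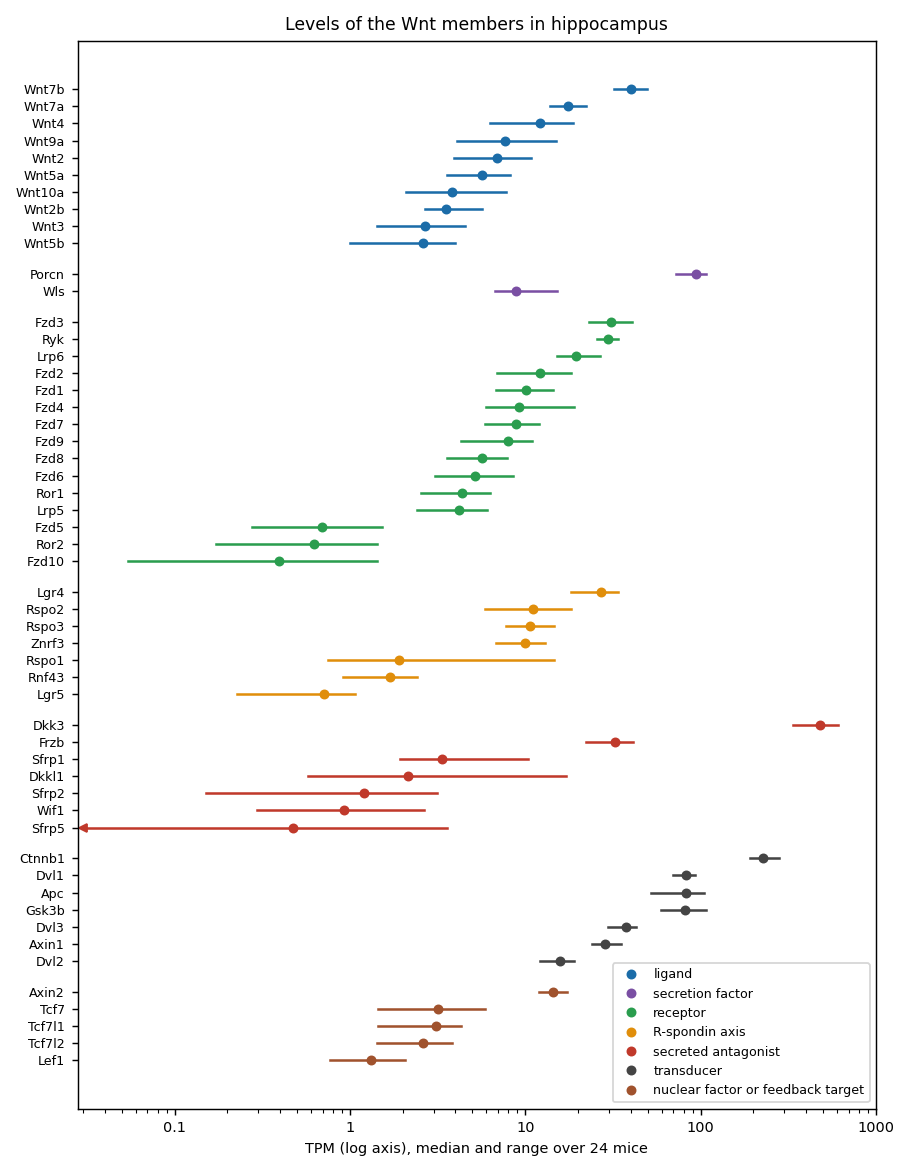
Level of each of the 53 Wnt genes kept, in TPM on a log axis, by role; points are medians and lines the lowest and highest of 24 mice, all genotypes together. Dkk3 at 481 TPM and Ctnnb1 at 229 TPM stand above the rest, and Sfrp5, whose lowest mouse is at 0 (arrow), and Fzd10 are at the bottom.

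Within roles the spread was wide. Among the ligands, Wnt7b, which acts on blood vessels and on dendrites of the developing brain, led with a median of 39.9 TPM, followed by Wnt7a at 17.5 and Wnt4 at 12.2, and the lowest kept ligand was Wnt5b at 2.60. Among the receptors, Fzd3, known for its role in axon guidance, had 31.0 TPM, Ryk 29.8 and Lrp6 19.4, while Ror2 had 0.626 and Fzd10 0.394. In the R-spondin axis, Lgr4, a receptor for R-spondins, had 27.0 TPM and its relative Lgr5 0.709. The R-spondin ligands had 11.0 (Rspo2), 10.6 (Rspo3) and 1.90 TPM (Rspo1). The ubiquitin ligases that clear Frizzled receptors from the membrane were at 10.04 TPM for Znrf3 and 1.69 for Rnf43. The secreted antagonists ran from Dkk3, the highest of all members, down to Sfrp5 at 0.472, with Frzb at 32.6 between them. Among nuclear genes, the feedback target Axin2 was at 14.3 TPM and the 4 Tcf and Lef factors were at 1.31 (Lef1) to 3.16 (Tcf7).

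The levels of each member by genotype are given in CPM, as the mean ± SD of 6 mice in the order wtNeg, wtPos, ffNeg, ffPos, and CPM values are compared within a gene only. Among the ligands, Wnt7b had 50.7 ± 7.46, 49.7 ± 5.52, 57.2 ± 2.53 and 52.9 ± 6.09 CPM. Wnt7a, its close relative, had 14.3 ± 1.68, 15.4 ± 2.66, 15.3 ± 2.37 and 14.9 ± 1.47 CPM. Wnt4, a ligand of both branches of the pathway, had 12.5 ± 3.45, 13.2 ± 3.07, 13.0 ± 1.404 and 15.1 ± 5.39 CPM. For Wnt7a the 4 means lay within the SD of each other. The Wnt7b mean was highest in ffNeg mice, with a log2 fold change of 0.18 ± 0.080 (SE) against wtNeg and an adjusted p of 0.483 by edgeR's quasi-likelihood test. Wnt4 was uneven among ffPos mice, at 6.78 CPM in male 2 and 21.1 CPM in male 3, the lowest and the highest of all 24 mice. Wnt5a had 11.7 ± 2.75, 10.3 ± 1.76, 12.0 ± 1.57 and 13.8 ± 2.09 CPM, and Wnt9a 8.14 ± 1.90, 7.51 ± 3.88, 6.59 ± 2.24 and 6.45 ± 2.32 CPM. The less abundant ligands Wnt2, Wnt2b, Wnt3 and Wnt5b had genotype means of 4.23 to 4.68, 4.12 to 4.501, 1.95 to 2.39 and 1.47 to 2.12 CPM. Of the secretion factors, Porcn had 78.2 ± 5.43, 76.2 ± 10.3, 79.1 ± 5.78 and 73.7 ± 7.15 CPM, and Wls 22.9 ± 3.63, 21.9 ± 6.94, 22.0 ± 2.79 and 25.01 ± 3.40 CPM.

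Among the receptors, Fzd1 had 11.3 ± 2.39, 10.1 ± 2.06, 11.0 ± 1.82 and 13.5 ± 2.25 CPM (SD, n = 6 each), with 3 of 6 ffPos mice above every other mouse. Fzd2 had 12.1 ± 1.54, 10.5 ± 2.16, 12.1 ± 1.39 and 13.2 ± 3.11 CPM. Fzd7 and Fzd8, both receptors of neural precursors, had 10.5 ± 1.63, 10.2 ± 2.12, 11.4 ± 1.67 and 9.82 ± 2.68 CPM and 9.37 ± 1.19, 8.71 ± 1.66, 8.86 ± 1.59 and 9.30 ± 1.75 CPM. Fzd5, Fzd6, Fzd9 and Fzd10 had genotype means of 1.16 to 1.65, 6.51 to 7.19, 4.55 to 5.13 and 0.415 to 0.488 CPM. The receptor kinase relative Ryk was the steadiest of the receptors, with 38.2 ± 2.26, 36.1 ± 1.56, 36.02 ± 2.16 and 36.1 ± 2.78 CPM. The co-receptors had means of 10.5 to 11.5 CPM (Lrp5) and 68.1 to 81.4 CPM (Lrp6), and Ror2 had means of 0.564 to 0.987 CPM.

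In the R-spondin axis, whose ligands keep Frizzled receptors on the membrane, Lgr4 had 42.8 ± 5.04, 40.9 ± 5.81, 37.5 ± 6.07 and 44.0 ± 4.58 CPM (SD, n = 6 each). Rspo2 had 16.0 ± 6.68, 14.5 ± 2.54, 15.4 ± 4.37 and 16.5 ± 4.94 CPM, and Rspo3 9.32 ± 2.0997, 9.01 ± 1.85, 8.09 ± 0.740 and 9.45 ± 1.85 CPM. Lgr5 had means of 1.54 to 2.06 CPM and Rnf43 of 2.74 to 3.25 CPM. Among the antagonists, Dkk3, a divergent member of the Dickkopf family, had 428 ± 35.8, 428 ± 28.3, 422 ± 26.6 and 454 ± 81.3 CPM. The larger SD in ffPos mice came with the highest mouse, female 1 at 556 CPM, and the lowest, male 3 at 306 CPM, both in that group. Frzb, a decoy that binds Wnt ligands, had 26.8 ± 3.35, 28.7 ± 5.26, 29.9 ± 2.82 and 29.6 ± 3.68 CPM. Sfrp2 and Wif1, also decoys, had means of 0.519 to 0.936 and 0.503 to 0.873 CPM, near the limit of what these libraries count, with 2 to 47 and 4 to 33 counts per mouse.

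Among the transducers, Gsk3b, the kinase that marks beta-catenin, had 220.1 ± 7.83, 207 ± 34.95, 199 ± 23.9 and 239 ± 24.7 CPM (SD, n = 6 each). Dvl3 had 62.5 ± 3.18, 62.8 ± 4.98, 62.1 ± 7.12 and 65.6 ± 1.88 CPM, and Dvl2 27.2 ± 3.66, 29.3 ± 3.40, 28.1 ± 4.19 and 25.2 ± 3.85 CPM. Axin1, the limiting scaffold of the complex, had 29.9 ± 1.52, 29.0 ± 1.85, 30.7 ± 3.23 and 28.1 ± 2.63 CPM. Among the nuclear genes, Lef1 had 2.69 ± 0.525, 3.28 ± 0.691, 2.92 ± 0.672 and 3.79 ± 0.643 CPM. All 6 ffPos mice were above the median of the others for Lef1, and 11 of the 18 others were below every ffPos mouse. Tcf7, Tcf7l1 and Tcf7l2 had means of 1.89 to 2.59, 2.63 to 3.50 and 5.66 to 6.64 CPM. Axin2 had 21.8 ± 1.27, 21.5 ± 3.04, 22.2 ± 1.70 and 20.98 ± 2.39 CPM.

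The first comparison set the 6 Egr1cKO mice against the other 18, asking which members differ when Egr1 is lost. Wnt8b and Sfrp5 fell under edgeR's filter on low counts. Of the 52 members tested, none passed edgeR's test (fold change of 1.2 or more, adjusted p of 0.05 or less), where 0.00543% of all 18433 genes did, 1 gene. At an unadjusted p under 0.05 there were 12 members by edgeR, or 23.1%, against 15.1% of all genes. Of those 12, 10 were at higher and 2 at lower levels in Egr1cKO mice, against 8.11% and 7% of all genes. DESeq2 called 1 member, Fzd4, and 0.184% of all genes. No member separated the 6 mice from the 18 without overlap, where 0.0109% of all genes did. The median log2FC over the members was 0.11 against -0.01 over all genes, and 35 of 52 were above 0 against 48.2% of all genes.

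**Figure D2:**
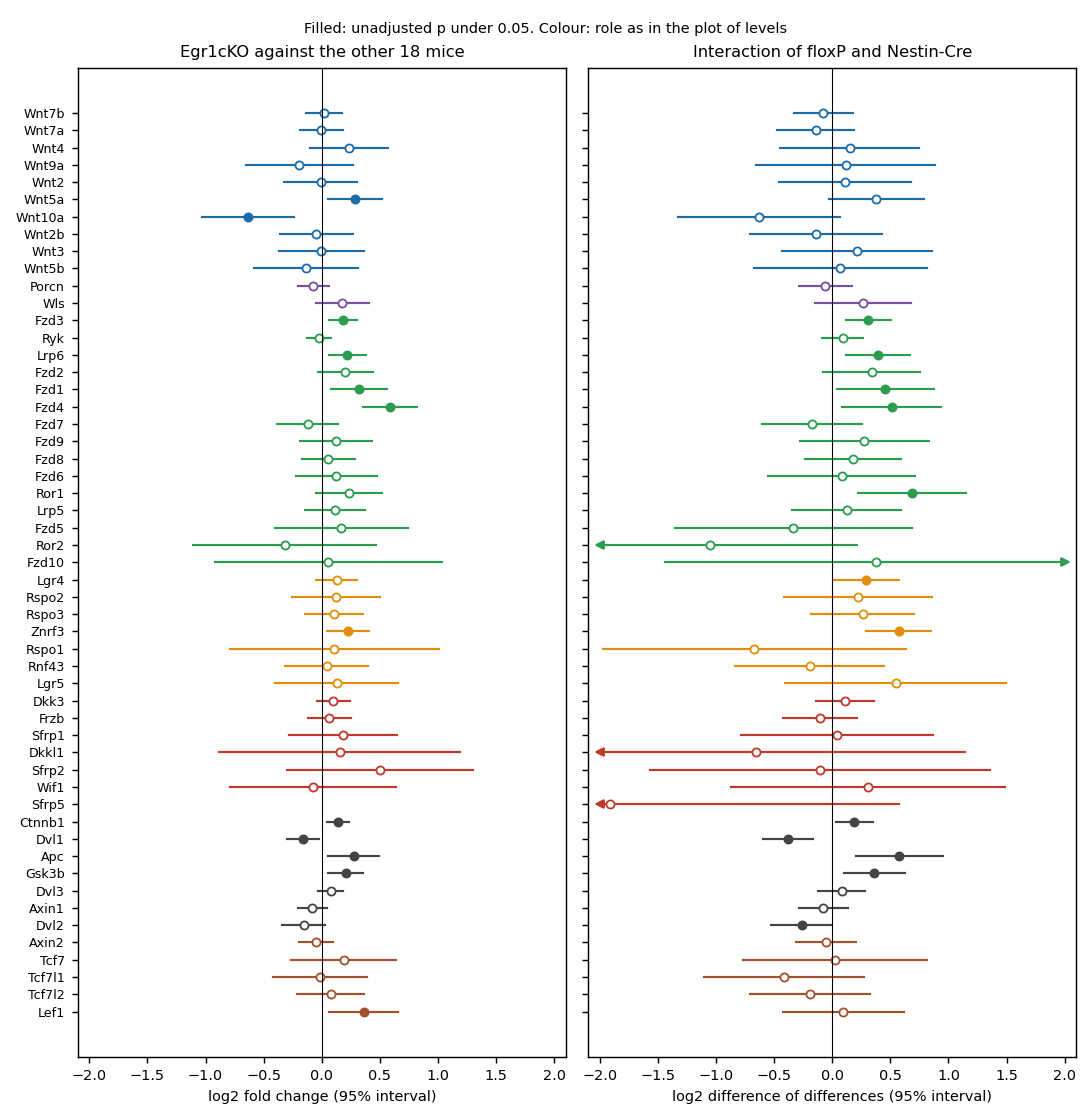
Log2FC of each Wnt gene with its 95% interval, by role, for ffPos against the other 18 mice (left) and for the floxP by Nestin-Cre interaction (right); filled points have an unadjusted p under 0.05 by edgeR, and arrows mark intervals that run past the axis. The 10 filled points above 0 and the 2 below it in the left panel come from receptors, transducers, ligands, Znrf3 and Lef1.

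Fzd4 (ENSMUSG00000049791, chromosome 7, 89404355 to 89413134), a receptor for Wnt ligands and for norrin that is needed in brain and retinal vessels, had the smallest p of the members. In ffPos females it was at 26.8, 33.0 and 25.6 CPM and in ffPos males at 16.8, 22.0 and 17.2 CPM. The other 18 mice ran from 11.6 to 22.9 CPM with a median of 15.7. All 3 ffPos females were above every other mouse, the 3 ffPos males lay within the range of the controls, and 13 of the 18 controls lay below all ffPos mice. Mean levels were 23.6 ± 6.21 (SD, n = 6) in ffPos, 15.5 ± 2.46 in ffNeg, 16.3 ± 3.60 in wtPos and 15.5 ± 1.53 CPM in wtNeg mice. The log2FC against the 18 was 0.58 ± 0.11 (SE, 95% interval 0.35 to 0.82), with an adjusted p of 0.0800 by edgeR and 0.00525 by DESeq2, which called it. Fzd4 was thus called by DESeq2 and not by edgeR.

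The Fzd4 value leaned on single mice. Without ffPos female 2 the log2FC was 0.47 and edgeR's adjusted p 0.448, and without wtPos female 1, ffPos male 1 or ffPos male 3 edgeR called it, the lowest adjusted p being 0.0109. Over all genes these 3 settings called 9, 3 and 215, against 1 with every mouse in. Summed markers of endothelium, a known site of Fzd4, were 134 to 157 CPM in ffPos mice (median 149) and 73.1 to 176 in the other 18 (median 127). Within ffPos mice they were 134 to 154 in females and 147 to 157 in males. Of the 5 markers, Flt1 was at 57.2 to 64.4 CPM in ffPos females and 50.2 to 56.4 in males, and Pecam1 at 15.0 to 19.3 and 13.0 to 14.7. These 2 were higher in every female. The ranges of Cldn5, Cdh5 and Slco1a4 overlapped between the sexes and reached higher in males. Cldn5 was at 13.6 to 23.5 CPM in ffPos females and 20.6 to 30.3 in males, Cdh5 at 9.98 to 10.9 and 10.3 to 12.9, and Slco1a4 at 37.1 to 44.3 and 43.1 to 49.7. The part of endothelial RNA in the Fzd4 difference was not tested.

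Wnt10a (ENSMUSG00000026167, chromosome 1, 74791516 to 74804179), a ligand of the beta-catenin branch, had the second smallest p and the opposite direction. It was at 1.71, 1.92 and 2.12 CPM in ffPos females and 2.50, 1.52 and 2.098 in males, against 1.42 to 5.14 CPM in the other 18, whose median was 2.98. All 6 ffPos mice were below that median, and 14 of the 18 were above every ffPos mouse. The log2FC was -0.64 ± 0.19 (SE), with an adjusted p of 0.201 by edgeR and 0.0926 by DESeq2, and was not called. At 27 to 107 counts per mouse its level is measured less precisely than those of Fzd4, Fzd3, Lrp6 and Ctnnb1. The receptors Fzd5, Fzd10 and Ror2 had 13 to 64, 1 to 32 and 4 to 32 counts per mouse.

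The other receptors with the smallest p were Fzd3 and Lrp6. Fzd3 was at 109, 117 and 132 CPM in ffPos females and 115, 109 and 110.1 CPM in ffPos males, against 85.7 to 115 CPM with a median of 101 in the others. All 6 ffPos mice were above that median and 14 of the 18 were below all 6. Its log2FC was 0.18 ± 0.057 (SE) with an adjusted p of 0.204 by edgeR. Lrp6, the co-receptor, was at 69.1 to 92.9 CPM with a median of 81.7 in ffPos mice and 58.5 to 86.3 CPM with a median of 68.5 in the others, a log2FC of 0.22 ± 0.077 (SE) and an adjusted p of 0.224 by edgeR. The groups overlapped, with 2 of 6 ffPos mice above all others.

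Ctnnb1, which encodes beta-catenin, was at 366, 357 and 372 CPM in ffPos females and 335, 326 and 321 CPM in males, against 279 to 349 CPM in the other 18. The 3 females were above every other mouse, and the males within the range of the controls. How many of all genes had this pattern was not counted. In the sex contrast described further on, none of the 7 transducers had an unadjusted p under 0.05 by edgeR. The log2FC was 0.14 ± 0.046 (SE) with an adjusted p of 0.204 by edgeR, a difference below the fold minimum of 1.2. The Ctnnb1 gene overlaps Ulk4 and other annotated genes. Such an overlap holds for 27 of the 53 members, among them Fzd3, Apc, Gsk3b, Ror1 and Dvl1 but not Fzd4, Wnt10a, Lrp6 or Znrf3, and non-stranded libraries do not separate the reads of overlapping genes. The remaining members under an unadjusted p of 0.05 were Gsk3b, Fzd1, Apc, Znrf3, Lef1 and Wnt5a, with log2FC from 0.20 (Gsk3b) to 0.36 (Lef1), and Dvl1 with -0.17. Their adjusted p values ran from 0.229 for Gsk3b to 0.255 for Dvl1 by edgeR.

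By role, 12 of 15 receptors and 7 of 7 genes of the R-spondin axis had a log2FC above 0 in this comparison, with medians of 0.13 and 0.12. Over all genes 48.2% were above 0, and of those with over 4452 exonic bases 64.3%. In the R-spondin axis log2FC ran from 0.04 to 0.22. Of these roles, 4 of 15 receptors and 1 of 7 R-spondin genes had an unadjusted p under 0.05 by edgeR. Among the ligands only 3 of 10 were above 0, with a median of -0.01, and among the transducers 4 of 7, with a median of 0.08. The feedback target Axin2, read most often as a gauge of beta-catenin signaling, was at 19.0 to 25.1 CPM in ffPos mice and 18.5 to 25.3 CPM in the others. Its log2FC was -0.05 with a 95% interval of -0.20 to 0.09, which excludes a rise of 1.2-fold. Of the most abundant members, Dkk3 had a log2FC of 0.10 (95% interval -0.05 to 0.24) and Porcn of -0.07 (-0.20 to 0.06).

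**Figure D3:**
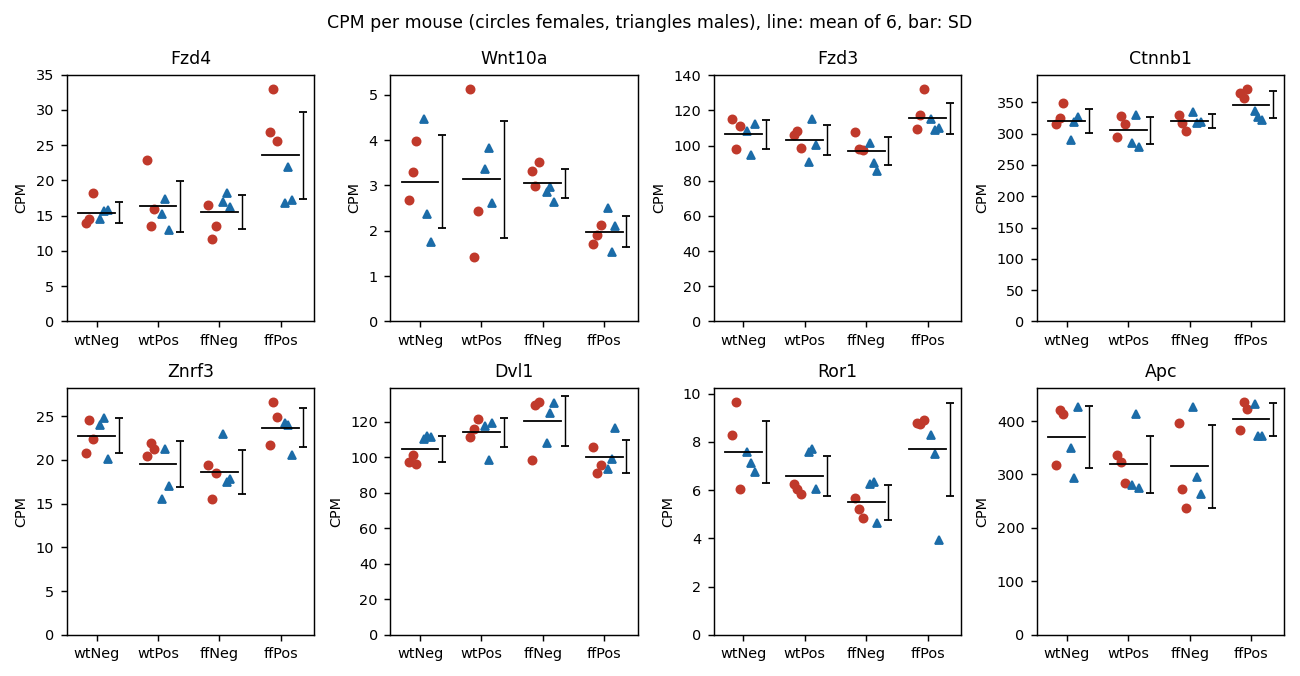
CPM of 8 Wnt genes in each mouse by genotype; circles are females, triangles males, and the line and bar are the mean and SD of 6 mice. For Fzd4 the 3 ffPos females, at 25.6 to 33.0 CPM, lie above all other mice, and for Znrf3 the wtPos and ffNeg means (19.6 and 18.6 CPM) lie below those of wtNeg and ffPos (22.8 and 23.7 CPM).

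A second comparison set Egr1cKO mice against the 6 mice that share the floxed allele. It uses the same ffPos mice as the first, so the results are not independent. Fzd10 here fell under the filter too, and none of 51 members was called by edgeR (0.0174% of all genes were). DESeq2 called Fzd4 (0.33% of all genes), and 12 members, or 23.5%, had an unadjusted p under 0.05 by edgeR against 16.2% of all genes. Of the 12, 10 were higher and 2 lower in ffPos mice, against 8.14% and 8.04% of all genes. Fzd4 had a log2FC of 0.60 ± 0.15 (SE), with an adjusted p of 0.240 by edgeR and 0.0372 by DESeq2. Fzd3 was at 109 to 132 CPM in ffPos and 85.7 to 108 CPM in ffNeg mice. Wnt10a was at 1.52 to 2.50 CPM in ffPos and 2.64 to 3.51 CPM in ffNeg mice. These are the 2 members whose groups did not overlap, Fzd3 with the higher and Wnt10a with the lower level in ffPos, where 0.463% of all genes had groups apart. Their log2FC was 0.26 ± 0.069 and -0.62 ± 0.17 (SE), both with an adjusted p of 0.240 by edgeR.

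Against the Cre control, which shares the Nestin-Cre transgene with ffPos, none of 51 members was called by edgeR (0.00585% of all genes were) or by DESeq2 (0.17%). By edgeR 10 members, or 19.6%, had an unadjusted p under 0.05, against 12.3% of all genes, with 8 higher and 2 lower in ffPos mice, against 6.6% and 5.69%. No member's groups were apart, where 0.345% of all genes' groups were. The smallest p values belonged to Apc, the scaffold of the destruction complex, with a log2FC of 0.34 ± 0.097 (SE), to Wnt5a, a ligand of beta-catenin-independent signaling, with 0.41 ± 0.13, and to Fzd4 with 0.53 ± 0.17, all at an adjusted p of 0.351 by edgeR. Apc was at 372 to 436 CPM in ffPos and 275 to 413 CPM in wtPos mice, the upper end of wtPos being male 2. Without that mouse edgeR called Apc, at an adjusted p of 0.0364, among 255 of 17336 genes called. Wnt5a was at 11.2 to 16.4 CPM in ffPos and 7.94 to 13.3 CPM in wtPos mice, which overlapped.

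The comparisons among mice that keep Egr1 asked what the transgene or the floxed allele does alone. In wtPos against wtNeg mice no member was called by edgeR or DESeq2 (0% and 0.0932% of all genes were), and 2 members, or 3.92%, had an unadjusted p under 0.05 by edgeR against 6.38% of all genes. They were Rspo1, with a log2FC of 1.49 ± 0.54 (SE), and Znrf3 with -0.22 ± 0.099, both at an adjusted p of 0.729 by edgeR. The third smallest p was that of Dvl1, with 0.13 and the same adjusted p. Rspo1 was at 7.54 CPM in wtPos female 1 and 0.658 to 1.82 CPM in the other 5 wtPos mice, and without that mouse its log2FC was 0.58.

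In ffNeg against wtNeg mice no member was called by edgeR or DESeq2 (0% and 0.00575% of all genes were), and 5 members, or 9.8%, had an unadjusted p under 0.05 by edgeR against 10.2% of all genes. The 3 smallest p values were those of Ror1, a receptor for Wnt5a, with -0.46 ± 0.13 (SE), Znrf3 with -0.29 ± 0.093 and Dvl1, which relays the signal from Frizzled, with 0.20 ± 0.074, all at an adjusted p of 0.483 by edgeR. Ror1 was at 4.64 to 6.32 CPM in ffNeg and 6.03 to 9.66 CPM in wtNeg mice, and the groups overlapped. In neither comparison did any member have groups apart, where 0.245% and 0.282% of all genes did.

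The interaction of floxP and Nestin-Cre measures how far the effect of both together departs from the sum of their separate effects, in a fit of all 24 mice with sex as a term. None of 54 members was called by edgeR (0.00533% of all genes were), DESeq2 called Znrf3 (0.218% of all genes), and 12 members, or 22.2%, had an unadjusted p under 0.05 by edgeR against 18.8% of all genes. Of those, 10 were above and 2 below 0, against 9.99% and 8.84% of all genes. The 2 below were Dvl1 and Dvl2.

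Znrf3 (ENSMUSG00000041961, chromosome 11, 5276324 to 5444847) had the smallest p. It was at 20.1 to 24.8 CPM in wtNeg, 15.6 to 22.0 in wtPos, 15.6 to 23.0 in ffNeg and 20.6 to 26.6 CPM in ffPos mice. Levels were thus lower in mice with either modification alone than in mice with neither or both, with overlap between all 4 genotypes. The interaction was 0.57 ± 0.14 (SE) on the log2 scale, with an adjusted p of 0.152 by edgeR and 0.0463 by DESeq2. Dvl1 had the mirror image, with means of 105 ± 7.23 CPM in wtNeg, 114 ± 8.28 in wtPos, 120.4 ± 13.9 in ffNeg and 100.3 ± 9.45 CPM in ffPos mice (SD, n = 6 each). Its interaction was -0.38 ± 0.11 (SE), at an adjusted p of 0.152 by edgeR. The 3 other members with the smallest p were Fzd3 at 0.31, Apc at 0.58 and Ror1 at 0.69, all at an adjusted p of 0.152 by edgeR. Apc means were 370.2 ± 57.9 in wtNeg, 319 ± 52.6 in wtPos, 315 ± 77.2 in ffNeg and 403 ± 30.3 CPM in ffPos mice (SD, n = 6 each). For Znrf3, Apc, Fzd3 and Ror1 the means of both single-modification genotypes were below those of wtNeg and ffPos mice.

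In the same fit, the floxP term gave no member called by edgeR (0.00533% of all genes) and 5 with an unadjusted p under 0.05, or 9.26%, against 5.39% of all genes. The Nestin-Cre term gave no member called by edgeR (0.048% of all genes) and 4 under that unadjusted p, or 7.41%, against 4.24%. Each term averages over the other modification and so takes in the ffPos mice. Fzd4 was among these members for both terms, with 0.27 ± 0.10 and 0.33 ± 0.10 (SE), while its log2FC was 0.0077 ± 0.11 for ffNeg and 0.086 ± 0.13 for wtPos against wtNeg mice.

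Between 12 females and 12 males no member was called by edgeR (0.0701% of all genes were) or DESeq2 (0.0993%), and 4 members, or 7.84%, had an unadjusted p under 0.05 by edgeR against 5.66% of all genes. No member had groups apart, where 0.0409% of all genes did. Dvl2, a relative of Dvl1, had a female mean of 25.3 ± 3.57 and a male mean of 29.6 ± 2.83 CPM (SD, n = 12), a log2FC of -0.23 ± 0.069 (SE) and an adjusted p of 0.615 by edgeR. Rspo2 with 0.34 ± 0.15 and Lgr4 with 0.16 ± 0.072 (SE) were higher in the female mean, at an adjusted p of 0.833 by edgeR.

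Whether Egr1 loss acts differently in females and males was tested as the sex difference in ffPos minus its mean in the other 3 genotypes. No member was called by edgeR or DESeq2 (0.00507% and 0.0304% of all genes were), and 6 members, or 11.1%, had an unadjusted p under 0.05 by edgeR against 6.09% of all genes. Fzd4 had the smallest p, with 28.5 ± 4.01 CPM in ffPos females and 18.7 ± 2.87 CPM in ffPos males (SD, n = 3 each). In the other genotypes, female means were 13.9 to 17.5 and male means 15.2 to 17.1 CPM. The difference of differences was 0.63 ± 0.20 (SE) on the log2 scale, with an adjusted p of 0.708 by edgeR. A sex difference in Fzd4 particular to ffPos mice is thus not shown. Females and males within ffPos alone were not compared by a test. Fzd2 was also higher in the ffPos female mean, with 16.8, 17.4 and 12.3 CPM in ffPos females and 9.90, 11.1 and 11.9 in ffPos males. Unlike for Fzd4, female 3 lay within the range of the other 18 mice, 7.05 to 13.9 CPM. The ffPos male mean of 11.0 CPM lay among the male means of the other genotypes, 10.8 to 12.8. The difference of differences for Fzd2 was 0.63 ± 0.21 (SE), with an adjusted p of 0.708 by edgeR. Sfrp5, the third, had 2 counts in all in the 3 ffPos females and 67 in the 3 males, 47 of them in male 3. The ratio was 0.0282 with an exact counting interval of 0.00334 to 0.106, which covers counting error only. The fit's adjusted p for Sfrp5 was 0.708 by edgeR.

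Some members stood out in single mice. The highest values of 11 of the 53 members fell on wtPos female 1, the mouse richest in markers of the choroid plexus, the tissue beside the hippocampus that makes cerebrospinal fluid. The 9 markers, led by Ttr, summed to 2787 CPM in wtPos female 1, 1582 in ffPos male 2, 1473 in ffNeg male 3, 1183 in ffNeg male 2 and 496 CPM in wtPos male 3, and to 129 to 240.3 CPM in the other 19 mice. In wtPos female 1 Rspo1 was at 7.54, the acrosomal Dickkopf-like Dkkl1 at 7.20, Sfrp1 at 12.0, Sfrp5 at 1.44, Wnt9a at 13.2 and Wls, the carrier of Wnt proteins to the cell surface, at 35.7 CPM. All but Sfrp5 were the highest of the 24 mice, and so were Wnt3, Wnt10a, Rnf43, Tcf7, Tcf7l2 and Axin2. The same mouse also had the highest marker sums for oligodendrocytes (5753 CPM) and endothelium (176). Its sums were the lowest of all for dentate granule cells (322 CPM), CA1 pyramidal cells (357) and CA3 and CA2 pyramidal cells (214). In the other 4 choroid-rich mice Dkkl1 was at 0.847 to 1.22 CPM, Rspo1 at 0.584 to 1.61, Sfrp1 at 3.21 to 4.74, Wnt9a at 5.02 to 8.03 and Wls at 16.5 to 24.1. Sfrp5 was at 1.31 CPM in ffNeg male 2 and at 0.0852 to 0.551 CPM in the other 3. The highest Sfrp5 was at 1.83 CPM in ffPos male 3, which had the lowest choroid sum of all, the highest striatal marker sum, 220.0 CPM, and the lowest Dkk3, 306 CPM. Without the 5 choroid-rich mice the Egr1cKO comparison called 1 member, Fzd4, at a log2FC of 0.65 and an adjusted p of 0.0189 by edgeR, among 19 of 18276 genes called. The part of choroid plexus RNA, or of RNA from the other cell types named, in these values was not tested.

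**Figure D4:**
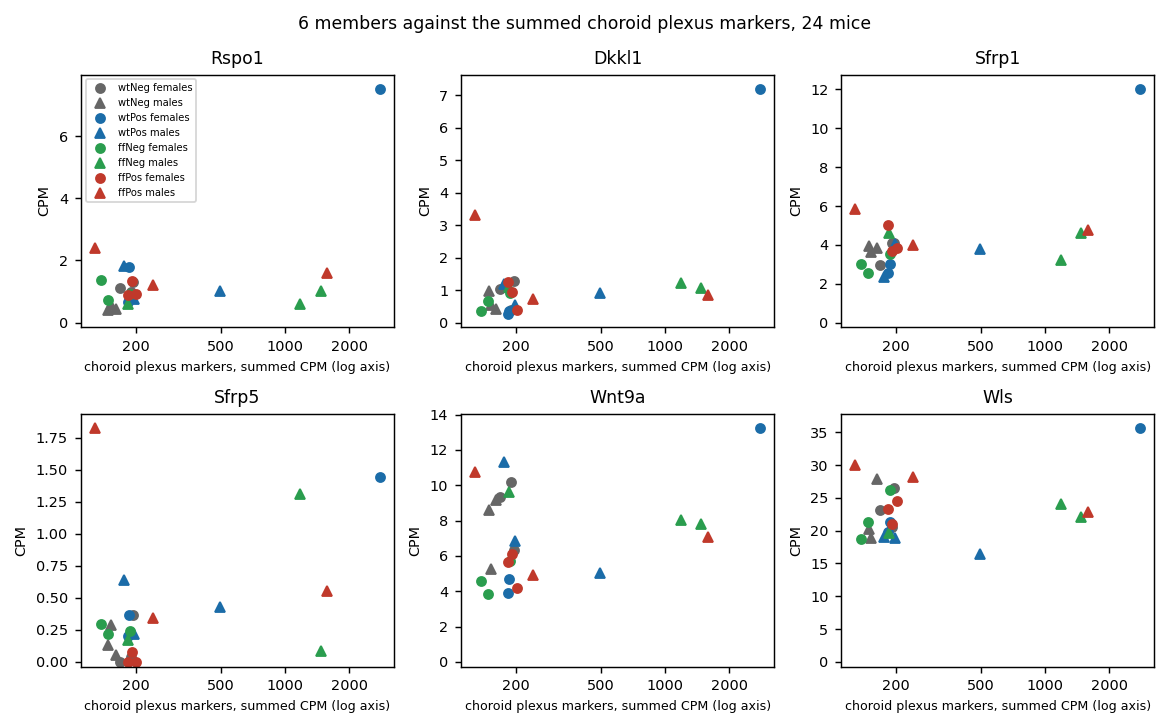
CPM of Rspo1, Dkkl1, Sfrp1, Sfrp5, Wnt9a and Wls in each of 24 mice against the summed CPM of 9 choroid plexus markers (log axis). The mouse at the right, wtPos female 1 with a sum of 2787 CPM, has the highest level of each gene but Sfrp5. Of the other 4 mice over 400 CPM, ffNeg male 2 is high for Sfrp5, at 1.31 CPM.

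Other marker sums also differed in range between ffPos mice and the rest. Microglial markers were 201 to 233 CPM in ffPos mice and 146 to 213 CPM in the other 18, precursors of oligodendrocytes 130.1 to 165 against 105 to 157, and oligodendrocytes 3054 to 4404 against 3745 to 5753 CPM. In the microglial sum, Csf1r was at 95.6 to 111 against 66.9 to 103 CPM and P2ry12 at 30.6 to 42.1 against 20.5 to 36.2. Cx3cr1 was at 43.1 to 64.7 against 36.8 to 64.8 CPM. Tmem119 was at 16.7 to 26.5 against 18.5 to 24.9 CPM, with its lowest mouse in ffPos. Astrocyte markers were 2013 to 2466 CPM in ffPos mice (median 2327) and 1841 to 2334 in the others (median 2106). The markers in this sum did not move alike. Aqp4 was at 196 to 264 against 101 to 227 CPM, Gja1 at 231 to 282 against 170 to 280 and Slc1a3 at 601 to 764 against 540 to 722. Aldoc was at 537 to 727 against 577 to 802 CPM and Gfap at 271 to 512 against 289 to 484, each with its lowest mouse in ffPos. Genes annotated as transcripts to be experimentally checked summed to 1176 to 1659 against 1400.4 to 2007 CPM. Each pair of ranges overlaps, and their part in the member results was not tested.

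The direction of the differences went with transcript length. Among members with exons of over 4452 bases in all, the median length of the members, 22 of 27 or 81.5% had a log2FC above 0 in Egr1cKO against the other 18 mice, and 13 of 25 or 52% of the shorter ones did. Over all genes the same split gave 64.3% and 36.3%. For the interaction, 19 of 27 long members (70.4%) and 14 of 27 short members (51.9%) were above 0, against 64.9% and 34.8% of all genes. Genes share the 24 libraries and are no replicates of each other. Across them, Spearman's rho of length and log2FC was 0.37 for the 52 members and 0.33 for all genes in the first comparison. Fzd3 with 12804 bases, Lrp6 with 13672 and Apc with 16116 are the 3 longest members, while Fzd1, with 4197 bases, is shorter than the median. The part of transcript length in the members' values was not tested.

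**Figure D5:**
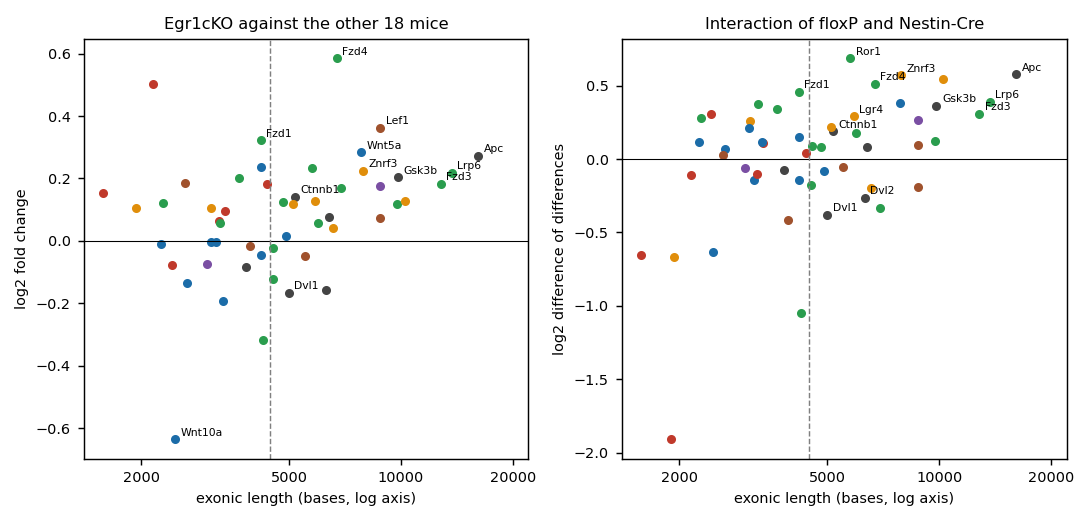
Log2FC of each Wnt gene against its total exonic length in bases (log axis), for ffPos against the other 18 mice (left) and for the interaction (right); the dashed line is at 4452 bases, and named points have an unadjusted p under 0.05 by edgeR. Long members lie above 0 more often, 22 of 27 in the left panel, as do long genes over the whole table (64.3%).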

How the data were processed

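RNA of 24 adult mouse hippocampi was sequenced by the authors as non-stranded, paired-end polyA libraries. Per the labels, reads were trimmed with Trim Galore 3.8.2 and mapped with STAR 2.7.9 to GRCm38, also called mm10. The paper gives other versions of both tools, and the annotation used for counting is not given in the sources used here. The authors deposited raw whole-number counts of 36605 genes, listed by Ensembl ID, and all 24 columns were used. Reads of overlapping genes cannot be separated.

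Symbols, positions and exonic lengths came from GENCODE M21, which named 36493 genes. Levels are CPM with TMM factors from edgeR, and TPM where genes are compared. Counts were tested in R 4.3.3 with edgeR 4.0.16 (filterByExpr with a minimum count of 10, quasi-likelihood F test, Benjamini-Hochberg over all genes tested). Calls needed an adjusted p of 0.05 or less and, except for interactions, a fold change of 1.2 or more. Pairwise fits held only the mice compared. SEs were derived from log2FC and F. The tests were checked on simulated counts with 200 genes changed 2-fold. They recovered from 58.5% of these genes, for the interaction, to 87.5%, between sexes. From 4 unchanged genes, for the interaction, to 11, for ffNeg against wtNeg, were called as well. Each gene was drawn independently, so variation that genes share within a library was not simulated. Smaller changes were not simulated either. The alternatives were DESeq2 1.42.0, DESeq2 size factors, no filter, other covariates, a shared fit, the replicate number as a block, no fold minimum and each mouse left out. Leaving out choroid-rich mice and a covariate of TEC genes (annotated as transcripts to be experimentally checked) were chosen after seeing the data.

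The members, gene lists and marker lists were chosen with earlier results of these data known. Full statistics are given for members called, for the 5 members with the smallest p in the Egr1cKO and interaction comparisons, and for 3 in each other one. Groups and sexes came from the labels. Nothing says that same-numbered mice were paired. No 2 mice of a group agreed within sampling noise.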

Additional observations from a re-analysis of the deposited data

Results flagged for a closer look

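Each member's 6 values in a genotype were searched for a highest or lowest mouse that stood apart by Dixon's 95% criterion. Of 212 groups 19 had one, where chance gives about 1 in 20. In wtPos female 1, 6 genes were high, in CPM: Wnt3 at 3.70, Wls at 35.7, Rspo1 at 7.54, Dkkl1 at 7.20, Sfrp1 at 12.0 and Sfrp5 at 1.44. This was the mouse with the highest choroid plexus, oligodendrocyte and endothelium marker sums. In ffPos male 3, Fzd10 at 1.24, Dkkl1 at 3.30 and Sfrp5 at 1.83 were high, and Wnt3 at 1.59 and Ror1 at 3.92 were low. This mouse had the highest striatal markers. In ffNeg male 2, also rich in choroid plexus markers, Wnt3 at 3.26, Sfrp5 at 1.31 and Axin1 at 36.8 were high.

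The other 5 values fell on 5 mice. Fzd3 was at 132 CPM in ffPos female 3 and Fzd8, a Frizzled receptor, at 12.7 in ffPos male 1, both high. Sfrp2 was at 1.48 in wtPos female 2, also high. Wnt4 at 7.35 in wtPos male 2 and Tcf7l1 at 1.59 in ffNeg female 3 were low. Several of these genes had under 100 counts per mouse, so that a few reads set their place.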

How the results depend on the processing

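Counts of members called were 0 by edgeR in all 8 comparisons. In Egr1cKO against the other 18 mice 1 member (Fzd4) was called by DESeq2, without the filter on low counts and without the choroid-rich mice, and 0 to 1 with a mouse left out. Against ffNeg DESeq2 called 1 (Fzd4), and against wtPos 0 to 1 with a mouse left out (Apc). For the interaction DESeq2 called 1 (Znrf3), no filter 6 (Apc, Dvl1, Fzd4, Gsk3b, Lrp6, Znrf3), and leaving out a mouse 0 to 7, with 7 without wtPos male 2, where 1482 of all genes were called. For the sex difference in ffPos no filter called 1 (Sfrp5). The other alternatives called no member. Over all settings no named member changed direction, 715 of its values kept their side of the threshold and 21 passed it. With DESeq2's size factors levels were 0.990 to 1.01 of those with TMM.

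Counts over all genes moved more. In Egr1cKO against the other 18 edgeR called 1 gene, DESeq2 34, no filter 7, sex as a covariate 3, a shared fit 5, the choroid-rich mice left out 19, and leaving out a mouse 1 to 215. Against ffNeg the counts were 3, 57 by DESeq2, 9 with no filter, 6 in a shared fit, 1 without the choroid-rich mice and 2 to 8 with a mouse left out. Against wtPos they were 1, 29 by DESeq2 and 1 to 255. In wtPos against wtNeg they were 0, 16 by DESeq2, 8 with no filter and 0 to 111, in ffNeg against wtNeg 0, 1 by DESeq2 and 4 with no filter, and for the interaction 1, 41 by DESeq2, 1173 with no filter and 1 to 1482. Between sexes they were 12, 17 by DESeq2 and 8 without the choroid-rich mice, and for the sex difference in ffPos 1, 6 by DESeq2 and 146 with no filter. The cause was not tested.

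With the replicate number as a block 0 members were called in all 8 comparisons, and the calls over all genes went from 1 to 3 in Egr1cKO against the other 18 and from 3 to 9 against ffNeg. Same-numbered mice of one sex did not deviate together: of 36 pairs 7 had a correlation over 0.1, from -0.26 to 0.30. Members with few counts limit the precision. With 10 or more counts required in all 24 mice, 46 members remain.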

Other observations

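A further 62 genes of the pathway, from a list of other ligands, antagonists, transducers, nuclear co-factors and planar polarity genes, were counted in the same fits. In Egr1cKO against the other 18 mice 55 were tested. None was called by edgeR or DESeq2, and 11 (20%) had an unadjusted p under 0.05 by edgeR, against 15.1% of all genes. Of the 11, 10 had higher and 1 lower levels in Egr1cKO mice, against 8.11% and 7% of all genes. The 3 smallest p values were those of Bcl9, a co-factor that binds beta-catenin in the nucleus, of Macf1, which links actin to microtubules, and of Nkd1, a feedback inhibitor that acts on Dvl. Bcl9 was at 75.9 ± 4.08 CPM in ffPos mice (SD, n = 6) and 64.6 ± 7.24 CPM in the others (n = 18), a log2FC of 0.24 ± 0.066 (SE). Macf1 was at 584 ± 26.7 against 502 ± 59.4 CPM and Nkd1 at 11.2 ± 2.23 against 8.99 ± 1.56 CPM. Their adjusted p values were 0.192, 0.201 and 0.223 by edgeR, and each pair of groups overlapped.

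Against ffNeg 8 of 54 had an unadjusted p under 0.05 by edgeR, or 14.8% against 16.2% of all genes. All 8 had higher levels in ffPos mice, as 8.14% of all genes did. DESeq2 called 1, Macf1, at an adjusted p of 0.0432. Its log2FC was 0.28 by edgeR, whose adjusted p was 0.240. Against wtPos it was 8 of 55 (14.5%, against 12.3% of all genes), again all higher (6.6% of all genes), led by Bcl9l, Apc2 and Celsr2. In the floxP by Nestin-Cre interaction 13 of 55 (23.6%) did, led by Bcl9l, Pygo1 and Tnks, against 18.8% of all genes. All 13 were above 0, against 9.99% of all genes. In ffNeg against wtNeg it was 8 of 54 (14.8%, against 10.2% of all genes), led by Sfrp4, Pygo1 and Btrc. Of these 8, 1 had a higher and 7 had lower levels in ffNeg mice, but all genes were not split by direction there. In wtPos against wtNeg it was 4 of 53 (7.55%, against 6.38%), led by Ccnd1, Pygo1 and Nkd1. Between sexes it was 7 of 54 (13%, against 5.66% of all genes), and for the sex difference in ffPos 3 of 57 (5.26%, against 6.09%). In these comparisons, other than that against ffNeg, no gene of the list was called by edgeR or DESeq2. The comparisons with ffPos share the same 6 mice.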
